A study of Homo sapiens with 6 samples.

Results

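The genes examined were those that code for the named protein families of the spliceosome and of nuclear RNA: the SR proteins (SRSF genes), the SF3A and SF3B subunits of the U2 snRNP (SF3 genes), the Sm core and the U1 and U2 proteins (SNRP genes), the particle proteins of the snRNPs (SNRNP genes) and the heterogeneous nuclear ribonucleoproteins (HNRNP genes). They were chosen by their symbols, with earlier results of these data known. Only autosomal protein-coding genes that had a transcript start on both genome builds used were considered. This gave 59 of 18978 genes, with 12 SRSF, 9 SF3, 11 SNRP, 7 SNRNP and 20 HNRNP genes, and left 18919 other genes for comparison. The members without a GRCh37 start here (HNRNPCL3, HNRNPCL4) and the X-linked HNRNPH2 were not counted among them.

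By their labels the cells were OCI-AML3, an established line of acute myeloid leukemia. This line has a heterozygous NPM1 mutation (mtNPM1) beside mutations of DNMT3A and NRAS, which both groups share. One group received the negative guide RNA sgNeg and the other received sgNpm1A, a guide RNA against mtNPM1, and per the labels both were kept in culture for 3 days, whereas the methods of the study give a longer time. Crosslinked chromatin was precipitated for acetylated lysine 27 (H3K27Ac) or trimethylated lysine 4 (H3K4me3) of histone H3 and tagmented with Tn5 (ChIPmentation). The 6 libraries fall into 6 groups of 1 library, namely 1 per guide RNA for each mark and 2 inputs, which were not analysed here. No spread between replicates exists for any value, no test between the guide RNAs was possible, and every difference given below is one between a pair of libraries. A mark lost in some of the cells and a weaker mark in all of them cannot be told apart in such a population.

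A spliceosome removes each intron after its snRNPs have recognised the splice sites and the branch point. SR proteins bind exons and recruit this machinery, whereas many hnRNPs bind nascent RNA and oppose or redirect it. The genes of both classes are active in nearly every dividing cell, and their promoters are mostly CpG islands without a TATA box. Such promoters typically hold a nucleosome-poor stretch at the start, with H3K4me3 and H3K27Ac on the nucleosomes to either side. Splicing factor genes, SRSF2 and SF3B1 among them, are recurrently mutated in myeloid malignancies.

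The 4 peak lists held 327715 (sgNeg) and 317059 (sgNpm1A) H3K27Ac peaks on GRCh37, and 353628 (sgNeg) and 106641 (sgNpm1A) H3K4me3 peaks on GRCh38, covering 220.2, 194.6, 93.7 and 55.4 Mb. The counts of reads per library are not in these lists, so the depth is unknown, although a peak list grows with depth. All labels name OCI-AML3, but the H3K27Ac lists carry the tag OCI2 and the H3K4me3 lists the tag OCI3, and the design text of the series speaks of 4 AML cell lines. The study also used OCI-AML2, a line with wild-type NPM1 only. Whether the tag stands for a run, for that line or for another was not settled. The cell line of the H3K27Ac lists therefore rests on the labels alone. The marks are given side by side and were not combined. The sgNpm1A lists had no rise at starts for any of the gene groups compared: among the other genes, 7.16% had their start under an H3K27Ac peak and 10.4% had a peak 3 kb upstream, against 54.4% and 16.2% in sgNeg. The part of this difference between libraries in the results below was not tested. NPM1 itself went from a percentile of 99.6 in both sgNeg lists to no promoter peak in either sgNpm1A list. A peak list holds no edited sequence, so the edit of NPM1 was not checked.

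For 6 members the promoter is shown, from 250 bases before to 50 after the RefSeq start on GRCh38.p14, as the sense strand of the gene. HNRNPU (chr1:244864494-244864793, minus strand) had the highest H3K4me3 peak of all members in sgNeg. SF3A2 (chr19:2236574-2236873, plus strand), SNRNP25 (chr16:53578-53877, plus strand), SNRNP200 (chr2:96305497-96305796, minus strand) and HNRNPM (chr19:8444725-8445024, plus strand) are among the 8 members with an H3K4me3 peak in sgNpm1A, where SF3A2, SNRNP25 and SNRNP200 had the highest percentiles and HNRNPM tied with SF3A1 and SF3B2. HNRNPCL1 (chr1:12848671-12848970, minus strand) had no peak of either mark. Capitals mark, on either strand, the CCAAT box (CCAAT), the GC box (GGGCGG), the TATA box (TATAAA), the ETS letters (CCGGAAG) and the E-box (CACGTG). In HNRNPU a CCAAT box and its reverse complement overlap.
HNRNPU: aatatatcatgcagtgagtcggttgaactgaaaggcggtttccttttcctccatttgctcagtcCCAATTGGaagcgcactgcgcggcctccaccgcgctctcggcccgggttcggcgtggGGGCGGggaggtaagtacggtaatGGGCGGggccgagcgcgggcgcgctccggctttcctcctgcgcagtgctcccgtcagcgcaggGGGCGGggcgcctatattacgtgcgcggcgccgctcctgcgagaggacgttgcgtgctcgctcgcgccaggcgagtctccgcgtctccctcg
SF3A2: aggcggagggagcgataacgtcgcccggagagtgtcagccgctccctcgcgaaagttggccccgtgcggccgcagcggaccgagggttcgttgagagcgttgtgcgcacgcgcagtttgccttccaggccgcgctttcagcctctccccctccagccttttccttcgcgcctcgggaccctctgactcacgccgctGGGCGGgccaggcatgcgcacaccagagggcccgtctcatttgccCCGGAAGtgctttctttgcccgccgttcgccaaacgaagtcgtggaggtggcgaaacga
SNRNP25: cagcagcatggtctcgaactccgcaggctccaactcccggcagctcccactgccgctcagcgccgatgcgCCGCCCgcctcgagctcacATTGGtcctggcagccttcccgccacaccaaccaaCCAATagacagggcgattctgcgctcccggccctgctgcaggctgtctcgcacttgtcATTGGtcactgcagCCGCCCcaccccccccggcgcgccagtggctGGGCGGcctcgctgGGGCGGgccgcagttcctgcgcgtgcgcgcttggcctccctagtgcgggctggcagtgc
SNRNP200: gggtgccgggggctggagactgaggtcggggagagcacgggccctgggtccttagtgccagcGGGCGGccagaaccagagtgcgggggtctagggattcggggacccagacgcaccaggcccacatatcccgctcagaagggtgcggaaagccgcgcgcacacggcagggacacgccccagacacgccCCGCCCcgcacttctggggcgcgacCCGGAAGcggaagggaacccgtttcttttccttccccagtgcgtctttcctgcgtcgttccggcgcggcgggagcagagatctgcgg
HNRNPM: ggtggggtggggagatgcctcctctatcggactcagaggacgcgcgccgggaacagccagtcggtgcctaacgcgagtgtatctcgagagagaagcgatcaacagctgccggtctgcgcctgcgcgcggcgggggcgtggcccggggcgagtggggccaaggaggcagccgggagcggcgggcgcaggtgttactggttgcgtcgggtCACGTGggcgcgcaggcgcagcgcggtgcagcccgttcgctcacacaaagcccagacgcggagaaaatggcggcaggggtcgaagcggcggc
HNRNPCL1: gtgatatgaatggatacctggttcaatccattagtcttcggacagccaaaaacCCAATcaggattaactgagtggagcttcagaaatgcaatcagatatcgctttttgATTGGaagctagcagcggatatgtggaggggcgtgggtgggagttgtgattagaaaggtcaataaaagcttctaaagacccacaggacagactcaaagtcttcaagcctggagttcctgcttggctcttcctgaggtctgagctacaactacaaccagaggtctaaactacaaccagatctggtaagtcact

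Of the 300 bases shown, 43 of HNRNPU and 48 of SNRNP200 lay under an H3K4me3 peak of sgNeg, and none of the other members shown had a base under one. In sgNpm1A none of the 6 stretches was touched by an H3K4me3 peak. Bases under the H3K27Ac peaks were not counted, because those lists are on the other build.

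The promoters of 54 members had an entry in the RefSeq table, and 15047 other genes served as background. CpG dinucleotides were frequent in them. The median of observed over expected CpG was 0.944 in the members, against 0.766 in the other genes, and 49 members (90.7%) exceeded 0.6, against 66.2% of the other genes. The lowest value, 0.262, belonged to HNRNPCL1, whose sequence is also the poorest in G and C of the 6 shown. The ETS letters were present in 20 members (37.0%), against 14.4% of all promoters. The SNRP and SF3 genes made up most of these, among them SF3A1, SF3A2, SF3A3, SF3B2, SNRPB, SNRPB2, SNRPE and SNRPG. The E-box was found in 8 members (14.8%, against 8.77% of all promoters), and the CCAAT box in 24 (44.4%, against 36.0%). The GC box (64.8%, against 58.9%) and the TATA box (11.1%, against 9.71%) were about as frequent as in all promoters. The 10-letter NRF1 motif was in none of the 54 windows (1.78% of all promoters), and the 10-letter YY1 motif was in 1, SF3A1 (1.96% of all promoters). These are matches of letters only, and no binding of a factor was measured. A protein-coding gene on the opposite strand started within 1 kb of 15 members (25.4%), against 13.6% of the other genes. SNRPD3 and GUCD1 start 23 bp apart, SRSF7 and GEMIN6 40 bp, and HNRNPA1 and CBX5 60 bp, and a peak between such a pair belongs to both.

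In the sgNeg cells nearly all splicing factor promoters carried both marks, and they stood high in both lists. A promoter was taken as the sequence within 1 kb of any annotated transcript start, and its level as the percentile of its highest peak by fold enrichment among all peaks of the list, with 0 for no peak. Of the 59 members, 57 had an H3K27Ac peak (96.6%, 95% Wilson interval 88.5 to 99.1), where 81.9% of all 18978 genes had one. For H3K4me3, 56 members had a peak (94.9%, interval 86.1 to 98.3), where 78.1% of all genes had one. These intervals cover counting error only.

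Most members stood among the highest peaks of the H3K27Ac list. The median percentile was 99.4 over the members and 93.5 over the other genes, and 36 members (61.0%) reached at least the 99th percentile, where 16.2% of all genes did. The q-value was under 1e-05 at 51 members, where 37.2% of all genes had such a peak. Among other genes used in every cell, 25.3% of the 79 cytosolic ribosomal protein genes and 21.3% of the 47 proteasome genes reached the 99th percentile. The 74 further splicing genes described below came close to the members, with a median percentile of 99.4 and 52.7% at or above the 99th. For H3K4me3 the order was different, with 24 members (40.7%) at or above the 99th percentile, against 54.4% of the ribosomal protein genes, 53.2% of the proteasome genes and 17.4% of all genes. Of the 74 further splicing genes, 44.6% reached it. The median H3K4me3 percentile was 98.6 over the members and 91.3 over the other genes, and 56 members had a q-value under 1e-05, where 60.5% of all genes did. No test was made of these differences between gene groups.

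**Figure D1:**
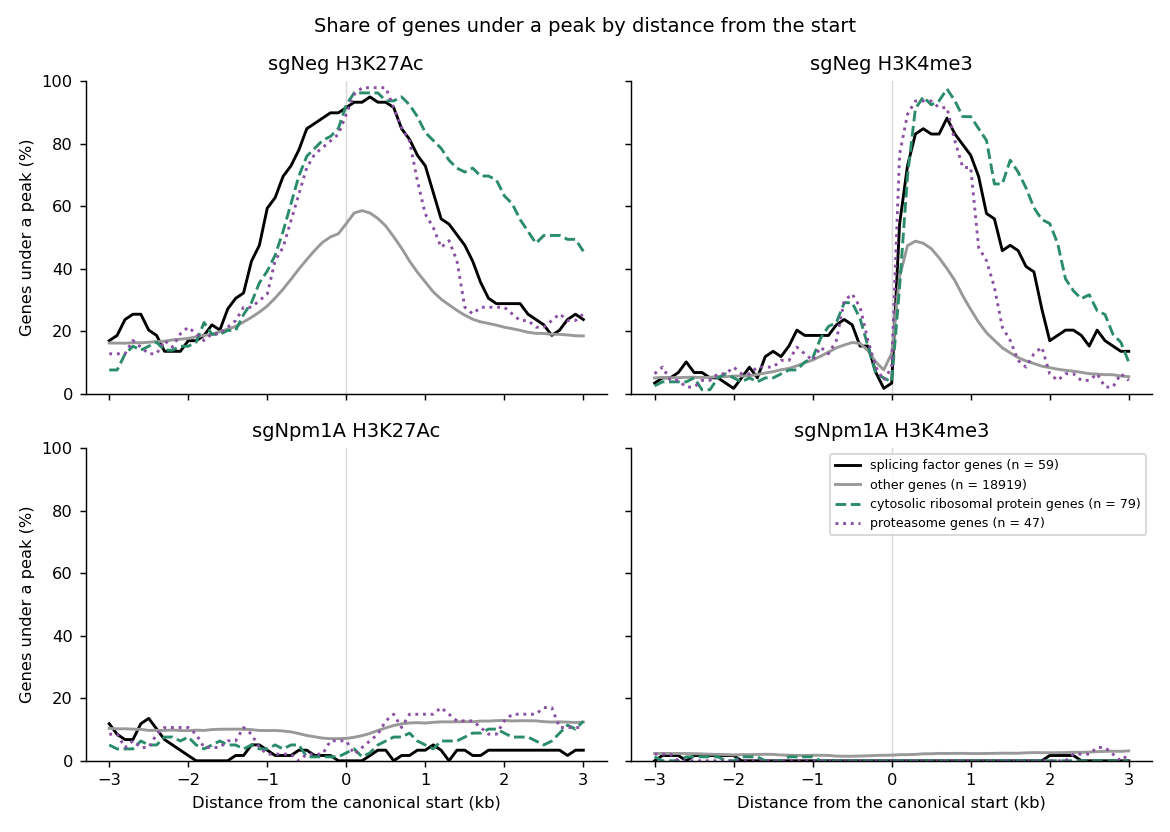
Share of genes (%) under a peak at each distance (kb) from the canonical transcript start, per list, for splicing factor genes (n = 59), all other genes (n = 18919), cytosolic ribosomal protein genes (n = 79) and proteasome genes (n = 47). In sgNeg the splicing factor line reaches 94.9% for H3K27Ac and 88.1% for H3K4me3, which begins downstream of the start, and in sgNpm1A it lies at 0 at the start for both marks.

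Around the canonical start, the start of the transcript that the annotation marks as representative, the peaks of the marks took different positions. The H3K27Ac lists hold broad peaks and the H3K4me3 lists narrow peaks, so mark and peak calling cannot be told apart in this difference. The start itself lay under an H3K27Ac peak of sgNeg at 91.5% of the members, against 54.4% of the other genes, and the share stayed at 84.8% 500 bp upstream. The start lay under an H3K4me3 peak at only 3.39% of them, against 12.9% of the other genes. This share rose to 54.2% at 100 bp downstream, 83.1% at 300 bp and 88.1% at 700 bp, and was 22.03% at 500 bp upstream. The H3K4me3 peaks of these promoters therefore lay mainly downstream of the start, whereas the broad H3K27Ac peaks spanned it. The ribosomal protein genes (3.80% at the start, 91.1% at 300 bp) and the proteasome genes (8.51% and 93.6%) had the same layout. The summit of the highest H3K4me3 peak of sgNeg lay downstream of the nearest annotated start at 40 of 56 members (71.4%). It did so at 69.4% of the other genes with a peak, so this side is not particular to the members.

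**Figure D2:**
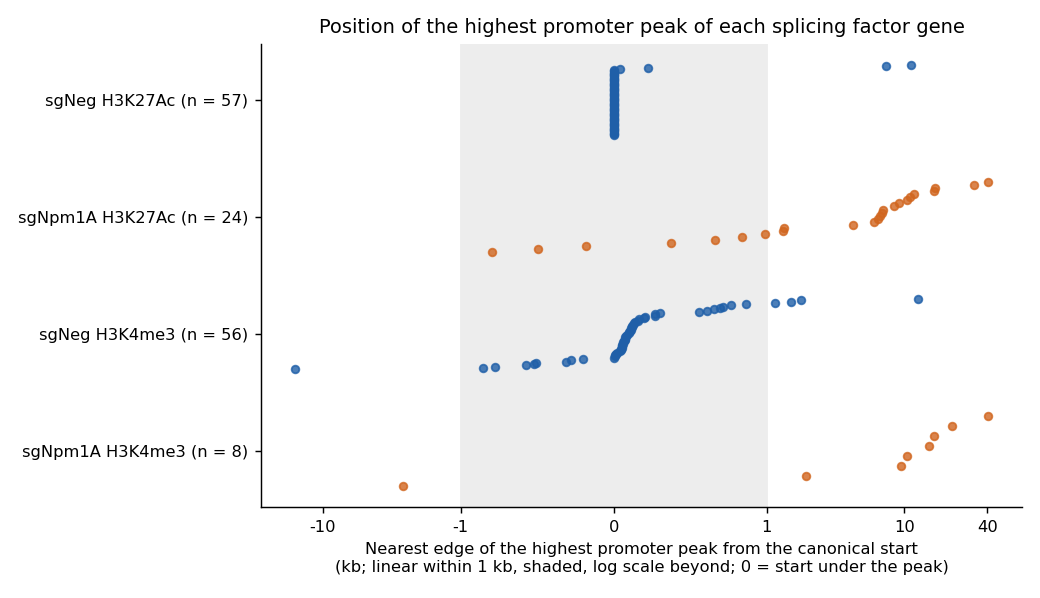
Distance (kb) from the canonical start to the nearest edge of the highest promoter peak of each splicing factor gene, with 1 point per gene and 0 for a start under the peak. The axis is linear within 1 kb (shaded) and logarithmic beyond. The H3K27Ac peaks of sgNeg covered 53 of 57 starts, and the sgNpm1A peaks of both marks covered none.

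By gene, the highest H3K27Ac peak of sgNeg covered the canonical start at 53 of 57 members. The highest H3K4me3 peak of sgNeg covered it at 0 of 56, began 1 to 300 bp downstream at 35, and had a median distance of 92.5 bp. HNRNPU is an example of both layouts. Its H3K27Ac peak (GRCh37, chr1:245024858-245028858) covers the start, and its H3K4me3 peak (GRCh38, chr1:244863433-244864536) begins 7 bp downstream of it, read in the direction of the gene.

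The peaks were also wide. The median width of the widest H3K27Ac promoter peak was 2562 bp in the members with a peak (range 889 to 9540), against 1684 bp in the other genes, and 41 of the 59 members (69.5%) had one over 2 kb, against 34.5%. For H3K4me3 the medians were 1149 bp (range 308 to 3045) and 691 bp. The widest H3K27Ac peaks were those of HNRNPF (9540 bp), SF3B4 (8399 bp) and HNRNPU (6616 bp), and the widest H3K4me3 peaks those of HNRNPD (3045 bp), HNRNPU (2414 bp) and SRSF3 (2371 bp). Peaks covered the whole window of 6 members for H3K27Ac, namely HNRNPA0, HNRNPF, SF3B4, SNRPD3, SNRPG and SRSF2. The median covered part of the window was 43.0% for H3K27Ac, against 24.5% in the other genes, and 22.5% for H3K4me3, against 11.1%. The merged window of all starts had a median of 5898 bp in the members, against 4743 bp in the other genes, so more sequence was searched for them in every list. With the canonical start alone, where the windows are equally long, 57 and 56 members still had a peak, beside 73.8% and 68.9% of the other genes.

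**Figure D3:**
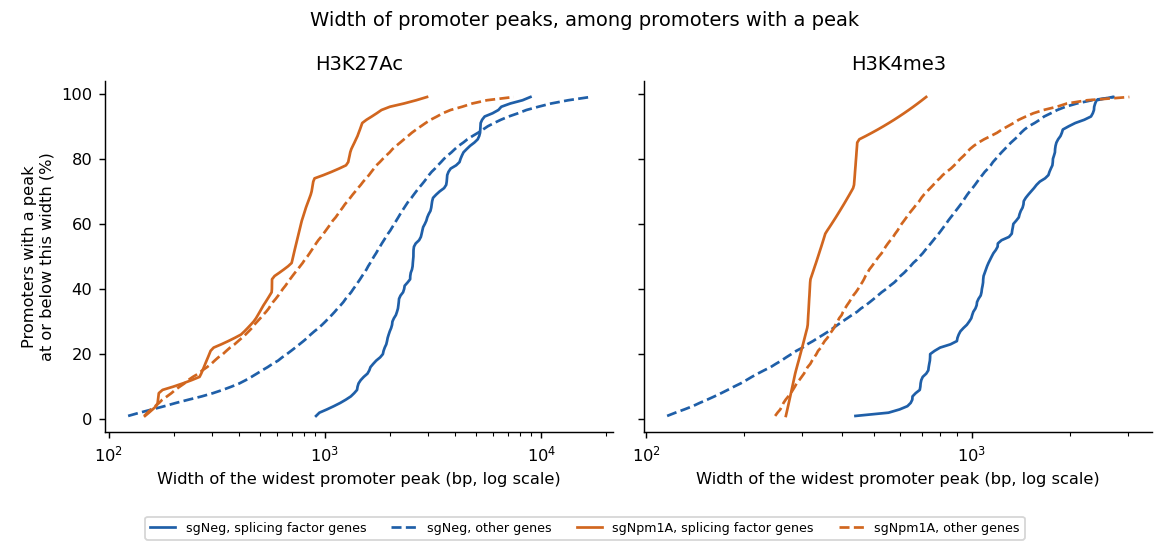
Cumulative share (%) of promoters with a peak at or below a given width (bp, log scale) of the widest promoter peak, for splicing factor genes (solid) and other genes (dashed), per guide RNA. In sgNeg the splicing factor curves lie to the right of those of the other genes over most of their course, with medians of 2562 and 1149 bp, and in sgNpm1A to the left, with medians of 712.5 and 337 bp.

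Most of these promoters had no peak in the sgNpm1A lists. An H3K27Ac peak was found at 24 members (40.7%, interval 29.1 to 53.4), where 60.1% of all genes had one, and an H3K4me3 peak at 8 (13.6%, interval 7.03 to 24.5), where 25.8% of all genes had one. So the members, which lay above the other genes in sgNeg, lay below them in sgNpm1A for both marks. Of the members, 33 had an H3K27Ac peak in sgNeg alone (26.9% of all genes), 24 in both (55.1% of all genes) and none in sgNpm1A alone (5.07% of all genes), and 2 had none. For H3K4me3, 48 had one in sgNeg alone (53.9% of all genes), 8 in both (24.2%), none in sgNpm1A alone (1.52%) and 3 in neither.

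The percentile was lower in sgNpm1A at 57 of the 59 members for H3K27Ac, where it was lower at 67.7% of all genes, and at 56 for H3K4me3, where it was lower at 73.2%. It was higher at none. Members at the top of the sgNeg list had little room to rise, and a percentile is a rank within its own list, so that percentiles of lists of unequal length (106641 against 353628 H3K4me3 peaks) are not levels on a common scale. The median percentile went from 99.4 to 0 for H3K27Ac and from 98.6 to 0 for H3K4me3, and in the other genes from 93.5 to 30.8 and from 91.3 to 0. Over the 24 members with an H3K27Ac peak in both lists, the medians were 99.5 and 58.9. No member had an H3K27Ac peak with a q-value under 1e-05 in sgNpm1A, where 0.933% of all genes did. None reached the 99th percentile there for H3K27Ac (1.03% of all genes) or H3K4me3 (0.617% of all genes). For 0 of 59 the Wilson interval reaches 6.11%, so these counts of 0 do not set the members apart from all genes. An H3K4me3 peak with a q-value under 1e-05 was found in sgNpm1A at SF3A2 (q = 1.77e-06) and SNRNP25 (q = 7.57e-06), beside 5.59% of all genes.

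Over any start the share was also lower than at promoters of a like sgNeg level, a comparison chosen after the data were seen. Of the 56 members at or above the 95th percentile for H3K27Ac in sgNeg, 24 (42.9%) had a peak in sgNpm1A, against 61.1% of the 8854 other genes at that level. For H3K4me3 it was 7 of 54 members (13.0%), against 26.7% of 8720. At the canonical start the gap was narrower. There 9 of 55 members (16.4%, interval 8.86 to 28.3) had an H3K27Ac peak, against 27.5% of the other genes at or above the 95th percentile, and 7 of 36 (19.4%, interval 9.75 to 35.0), against 23.9%, at or above the 99th. For H3K4me3 it was 0 of 53 (interval up to 6.76%), against 2.66%, and 0 of 23 (interval up to 14.3%), against 2.18%. At that start the intervals of the members hold the share of the other genes of a like level in each of these comparisons. Over any start, 35.4% of the ribosomal protein genes had an H3K27Ac peak in sgNpm1A and 2.53% an H3K4me3 peak, and 57.4% and 14.9% of the proteasome genes. At the canonical start the shares were 16.5% and 1.27% of the ribosomal protein genes, and 29.8% and 0% of the proteasome genes. Over all 59 members they were 15.3% and 0% there, so the level of the members is close to that of the ribosomal protein genes.

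Few of the sgNpm1A peaks lay at the main start of the gene. In sgNpm1A the highest H3K27Ac peak covered the canonical start at 0 of 24 members and lay more than 1 kb downstream at 17, with a median distance of 6522 bp. The other 7, within 1 kb, belonged to HNRNPH1, HNRNPU, SNRNP200, SNRPB2, SRSF10, SRSF2 and SRSF9. For all other members, an H3K27Ac percentile of sgNpm1A given by gene below is that of a peak over 1 kb from the canonical start. None of the 8 H3K4me3 peaks lay within 1 kb of it, 7 were downstream, and the median distance was 12800 bp. With the canonical start alone, 9 members had an H3K27Ac peak (15.3%, interval 8.24 to 26.5), namely those 7 with HNRNPL and SNRPA, where 34.1% of all genes did. For H3K4me3 it was 0 of 59, for which the Wilson interval reaches 6.11% (3 counts of 59 would be 5.08%), where 7.98% of all genes had one. From 100 bp upstream to 200 bp downstream of that start no member was under an H3K27Ac peak of sgNpm1A, against 7.09 to 8.06% of the other genes.

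The same windows were also moved by 20 kb to either side. Moved windows that met another promoter were not left out, so these counts are no level away from promoters. In sgNpm1A these held an H3K27Ac peak at 43 members (72.9%, other genes 73.8%), more than the 24 with one at the promoter, and an H3K4me3 peak at 19 (32.2%, other genes 37.6%), more than the 8. In sgNeg they held an H3K27Ac peak at 50 members (84.75%, other genes 76.8%) and an H3K4me3 peak at 40 (67.8%, other genes 67.5%). These were fewer than the 57 and 56 at the promoters. Since 2 moved windows were searched for each promoter, these counts are not shares of equal length.

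**Figure D4:**
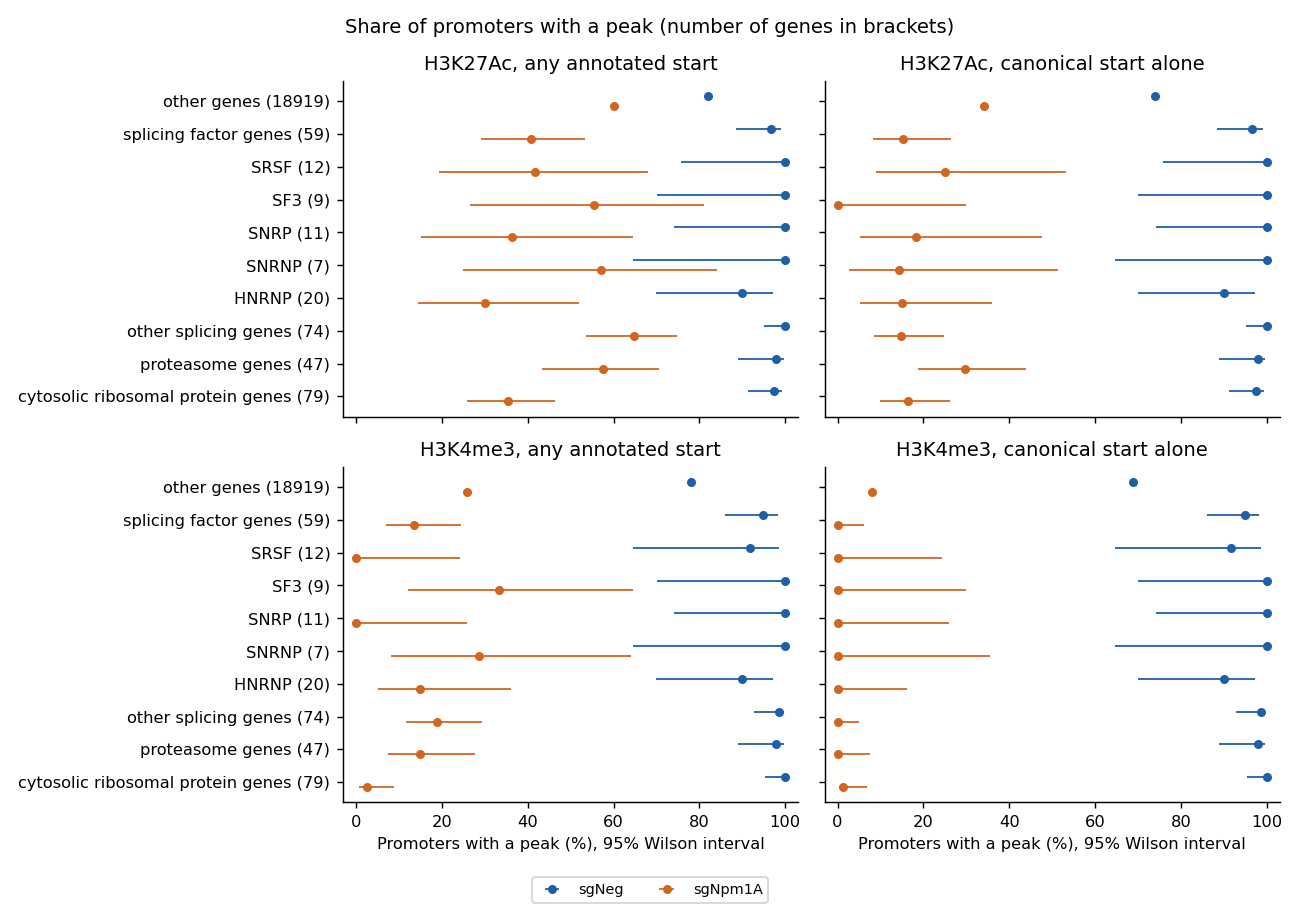
Share of promoters with a peak (%) by gene group, guide RNA and mark, with 95% Wilson intervals (counting error only) and the number of genes in brackets, over any annotated start (left) and the canonical start alone (right). At the canonical start the splicing factor genes go from 57 to 9 of 59 for H3K27Ac and from 56 to 0 of 59 for H3K4me3.

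The SR proteins bind exonic enhancers through an RNA recognition motif and recruit spliceosome parts through their arginine-serine domain. In sgNeg 11 of the 12 SRSF genes stood between the percentiles 97.5 and 99.9 for H3K27Ac. SRSF2, whose protein binds exonic enhancers and is mutated in myeloid neoplasms, was the highest of them. Its H3K27Ac peak had a percentile of 99.9 and 8.97-fold enrichment in sgNeg and of 26.3 and 2.79-fold in sgNpm1A. The sgNeg peak (GRCh37, chr17:74728708-74734966, 6259 bp) covered the whole promoter window, whereas the sgNpm1A peak (chr17:74732124-74732422) was 299 bp wide. Its H3K4me3 peak was 16.6-fold enriched and had a percentile of 99.98 in sgNeg, and no H3K4me3 peak was found in sgNpm1A. None of the SRSF genes had an H3K4me3 peak in sgNpm1A, and 5 had an H3K27Ac peak.
SRSF12 was the exception among the SR proteins. It had 2 low H3K27Ac peaks in sgNeg and none in sgNpm1A. The higher peak (2.60-fold, percentile 20.0, 133 bp, deposited q-value 0.0563) lay 11190 bp downstream of its canonical start. The other, 889 bp wide with a percentile of 17.6, reached within 1 kb of that start. No H3K4me3 peak was found at SRSF12 in either list. SRSF1, the founding member of the family, had H3K27Ac percentiles of 99.7 in sgNeg and 67.0 in sgNpm1A, where the peak was 171 bp wide and 1330 bp downstream of the start. Its H3K4me3 percentile was 98.5 in sgNeg, with no peak in sgNpm1A. SRSF3, which has the widest H3K4me3 peak of the family (2371 bp, GRCh38, chr6:36594663-36597033), had H3K27Ac and H3K4me3 percentiles of 99.7 and 98.5 in sgNeg and no peak of either mark in sgNpm1A.

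SF3A and SF3B proteins hold the U2 snRNP at the branch point. Their 9 genes had the lowest median H3K27Ac percentile of the 5 families in sgNeg (97.4) and the highest median H3K4me3 percentile (99.4). In sgNpm1A 5 had an H3K27Ac peak and 3 had an H3K4me3 peak, and none of these lay within 1 kb of the canonical start. SF3A2 was the member with the highest H3K4me3 percentile in sgNpm1A. Its H3K4me3 peak was 10.6-fold enriched with a percentile of 99.6 in sgNeg (GRCh38, chr19:2235193-2236306), and 4.83-fold with a percentile of 92.6 in sgNpm1A (chr19:2246211-2246655). The second peak is 9387 bp downstream of the canonical start, whereas the promoter printed above holds no base of it. For H3K27Ac SF3A2 went from a percentile of 99.8 to 76.1, the latter from a 206 bp peak 8406 bp downstream of the canonical start.

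SF3A1 and SF3B2 were the other SF3 genes with an H3K4me3 peak in sgNpm1A. SF3A1 had H3K4me3 percentiles of 98.97 in sgNeg and 43.9 in sgNpm1A, and H3K27Ac percentiles of 97.5 and 84.1. Its sgNpm1A peaks lay 16381 bp (H3K4me3) and 11020 bp (H3K27Ac) downstream of the canonical start. SF3B2 had H3K4me3 percentiles of 99.7 and 43.9, and H3K27Ac percentiles of 95.7 and 15.4, the former being the lowest of the family. The H3K4me3 peak of SF3B2 in sgNpm1A was the only one upstream of a canonical start, at −2619 bp. SF3B1, which codes for the HEAT-repeat protein that contacts the branch point and is mutated in myelodysplasia, had an H3K27Ac percentile of 99.3 and an H3K4me3 percentile of 98.5 in sgNeg. No peak of either mark was found at SF3B1 in sgNpm1A. SF3B3, the lowest of the family for H3K4me3 in sgNeg (98.3), had no H3K4me3 peak in sgNpm1A and H3K27Ac percentiles of 98.99 and 74.4. SF3B4 had an H3K27Ac peak of 8399 bp (GRCh37, chr1:149895594-149903992) at 4.46-fold, so a wide peak did not have to be high, and an H3K4me3 percentile of 99.6 in sgNeg. It had no peak in sgNpm1A.

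The SNRP genes code for the Sm ring that all major spliceosomal snRNPs but U6 share, and for proteins particular to the U1 and U2 snRNPs. All 11 had peaks of both marks in sgNeg, with H3K27Ac percentiles from 95.9 (SNRPF) to 99.7 (SNRPA) and H3K4me3 percentiles from 95.9 (SNRPD2) to 99.8 (SNRPB2). No SNRP gene had an H3K4me3 peak in sgNpm1A. There 4 had an H3K27Ac peak, namely SNRPA (percentile 80.6), SNRPB (56.4), SNRPB2 (46.7) and SNRPA1 (10.5). SNRPC, which codes for a U1 protein, and the Sm genes SNRPD1, SNRPD2, SNRPD3, SNRPE, SNRPF and SNRPG had none. SNRPD3, whose start is 23 bp from that of GUCD1, had an H3K27Ac peak of 4166 bp over its whole window at 6.07-fold in sgNeg. SNRPA, which codes for the U1 protein that binds a loop of the U1 snRNA, had an H3K4me3 percentile of 97.9 in sgNeg, SNRPF one of 97.4, and SNRPD2 an H3K27Ac percentile of 97.6. At SNRPB2, which codes for a U2 snRNP protein, the H3K27Ac fold was 5.57 in sgNeg and 2.92 in sgNpm1A, and the H3K4me3 fold was 11.9 in sgNeg with no peak in sgNpm1A.

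The SNRNP genes code for proteins of single snRNP particles, such as the U1 70K protein (SNRNP70), the U5 helicase Brr2 (SNRNP200), a further U5 protein (SNRNP40) and proteins of the minor spliceosome (SNRNP25, SNRNP35, SNRNP48). In sgNpm1A 4 of the 7 had an H3K27Ac peak and 2 an H3K4me3 peak, and their median H3K27Ac percentile there was 80.0. With 7 genes the Wilson interval of the H3K27Ac share runs from 25.05 to 84.2%. With the canonical start alone, 1 of the 7, SNRNP200, had an H3K27Ac peak in sgNpm1A. SNRNP200 had the smallest difference in H3K27Ac percentile of the 24 members with a peak in both H3K27Ac lists. Its H3K27Ac percentile was 97.7 in sgNeg (4.62-fold, 1986 bp) and 96.9 in sgNpm1A (3.86-fold, 158 bp at the highest peak). The pieces under peaks covered 24.6% and 24.5% of its window over all annotated starts, with 5 peaks in each list. At the canonical start sgNeg had 1 peak, of 1986 bp, and sgNpm1A had 1, of 158 bp. The widest sgNpm1A peak (1883 bp) lay at another start, so the like coverage is not that of the canonical start. The H3K4me3 percentiles of SNRNP200 were 94.4 and 60.5, with the sgNpm1A peak (GRCh38, chr2:96282923-96283241) 22305 bp inside the gene.

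SNRNP25 and SNRNP40 also stood high in sgNpm1A. SNRNP25 had H3K27Ac percentiles of 98.6 and 85.1 and H3K4me3 percentiles of 98.6 and 88.6. Its sgNpm1A H3K27Ac peak was the widest of all members (3283 bp, GRCh37, chr16:105132-108414), reached past the end of the gene at 107669, and was wider than the widest sgNeg peak of 1925 bp. SNRNP40 had H3K27Ac percentiles of 98.98 and 93.5, the latter from a peak of 168 bp that lay 6624 bp downstream of the canonical start. Its H3K4me3 percentiles were 98.9 and 0. SNRNP35 was the highest SNRNP gene for H3K27Ac in sgNeg (99.7) and the lowest for H3K4me3 (91.3), and had no peak in sgNpm1A. SNRNP70 had the highest H3K4me3 percentile of the family in sgNeg (99.7, none in sgNpm1A), and its H3K27Ac percentile went from 98.4 to 80.0. The latter came from a peak 16615 bp downstream of the canonical start. SNRNP27, which codes for a tri-snRNP protein and was the lowest of the family for H3K27Ac in sgNeg (97.6), had an H3K4me3 percentile of 98.5 in sgNeg and no peak in sgNpm1A.

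The hnRNPs package nascent RNA and often act as splicing silencers. Their 20 genes had the highest median H3K27Ac percentile in sgNeg (99.8), and the 5 highest H3K27Ac peaks of all members were theirs. HNRNPU, which codes for a nuclear matrix protein that binds RNA and chromatin, had the highest peak of both marks. Its H3K27Ac peak was 13.9-fold enriched in sgNeg (percentile 99.99) and 2.89-fold in sgNpm1A (percentile 43.1). Its H3K4me3 peak was 19.6-fold enriched in sgNeg (percentile 99.99) and 2.80-fold in sgNpm1A (percentile 1.67), where it was 287 bp wide and 15053 bp downstream of the start. That second peak shares no base with an sgNeg promoter peak, and none of the 300 bases printed above lay under it.

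HNRNPH1, which codes for a protein that binds G-rich RNA, had 12.0-fold H3K27Ac enrichment in sgNeg and 2.68-fold in sgNpm1A (percentiles 99.98 and 9.13). Its H3K4me3 percentile was 99.2 in sgNeg, with no peak in sgNpm1A. HNRNPUL1, a relative of HNRNPU, had H3K27Ac percentiles of 99.95 and 76.0 and an H3K4me3 percentile of 98.8 in sgNeg alone. Neither HNRNPUL2 nor HNRNPH3 had a peak in sgNpm1A. HNRNPUL2 had 9.27-fold H3K27Ac and 15.4-fold H3K4me3 enrichment in sgNeg, and HNRNPH3 had 9.05-fold and 7.28-fold. HNRNPA0, an intronless gene with a single annotated start, had 8.85-fold H3K27Ac over its whole window and 16.2-fold H3K4me3 in sgNeg, and no peak of either mark in sgNpm1A.

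**Figure D5:**
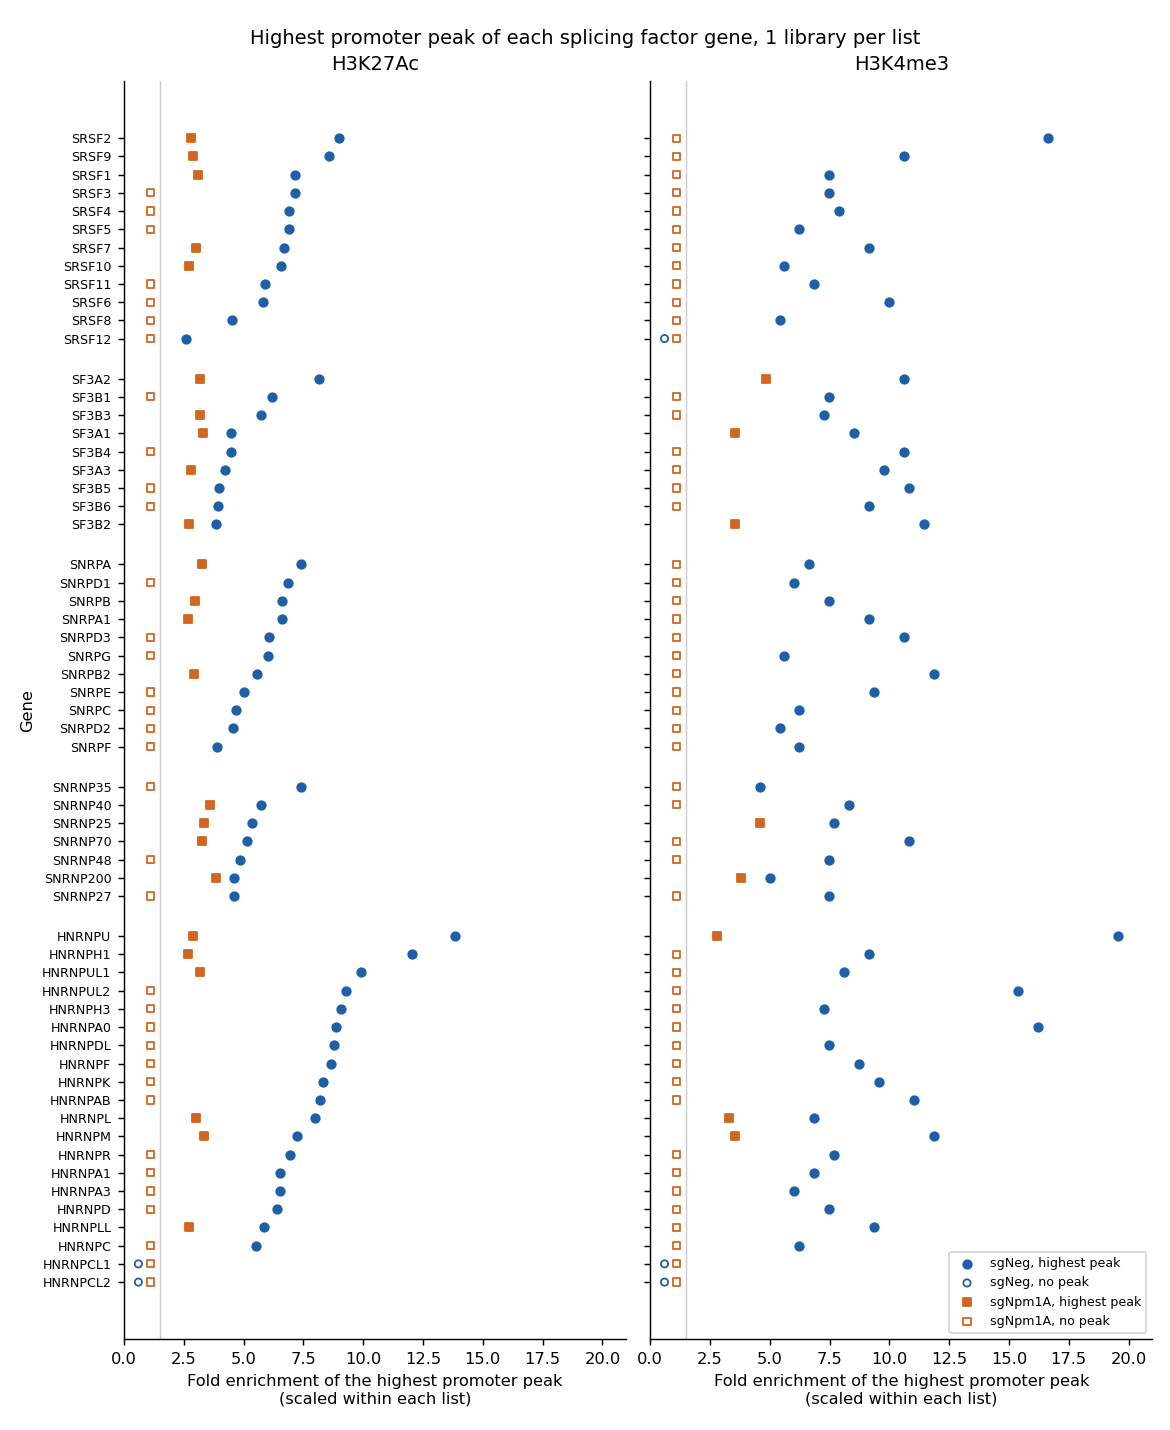
Fold enrichment of the highest promoter peak of each of the 59 splicing factor genes, by family, for H3K27Ac (left) and H3K4me3 (right), with 1 library per list. Filled symbols are peaks (circles sgNeg, squares sgNpm1A) and open symbols left of the grey line are genes without a peak, and fold enrichment is scaled within each list. The sgNpm1A squares lie between 2.68 and 4.83-fold, and HNRNPU is the highest sgNeg point of both marks.

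HNRNPM and HNRNPL, like HNRNPU, had peaks of both marks in sgNpm1A, and at HNRNPM and HNRNPL these overlapped an sgNeg peak for each mark. HNRNPM, a regulator of alternative splicing, had H3K27Ac percentiles of 99.7 and 86.1 and H3K4me3 percentiles of 99.8 and 43.9. Both of its sgNpm1A peaks lay over 40 kb inside the gene, at 40379 and 40362 bp from the canonical start, within 1 kb of a further annotated start. HNRNPL, which binds CA repeats, had H3K27Ac percentiles of 99.8 and 58.5 and H3K4me3 percentiles of 98.0 and 25.6. HNRNPA1, the best known splicing silencer of the family, had H3K27Ac and H3K4me3 percentiles of 99.4 and 98.0 in sgNeg and no peak in sgNpm1A. HNRNPF, with an H3K27Ac percentile of 99.9 and an H3K4me3 percentile of 99.1, and HNRNPD, with 99.4 and 98.5, had the widest peaks in sgNeg and none in sgNpm1A. HNRNPCL1 and HNRNPCL2, near-identical copies in a repeated stretch of chromosome 1 to which reads may not be assigned uniquely, had no peak in any list. Without them the H3K27Ac counts were 57 of 57 members in sgNeg and 24 of 57 in sgNpm1A.

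Within H3K27Ac the sgNeg and sgNpm1A promoter peaks shared at least 1 base at 19 members (32.2%), where they did at 46.1% of all genes, and each overlapped by at least 50% of its length at 2, HNRNPL and SNRNP25, where they did at 20.6% of all genes. For H3K4me3 they shared a base at 5 members (HNRNPL, HNRNPM, SF3A1, SF3A2 and SNRNP25), where they did at 17.6% of all genes, and overlapped by at least 50% at SF3A2 alone, where they did at 7.97% of all genes. Among promoters with a peak in both lists, a base was shared at 79.2% of the members and 83.7% of the other genes for H3K27Ac, and at 62.5% and 72.7% for H3K4me3. At SRSF2, for instance, the 299 bp of the sgNpm1A peak lay within the 6259 bp of the sgNeg peak. The median width of the widest H3K27Ac promoter peak in sgNpm1A was 712.5 bp in the members with a peak (other genes 829 bp), and that of H3K4me3 337 bp (518 bp).

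A list of 74 further splicing genes in 8 groups was set beside the members. In sgNeg each of the 74 carried H3K27Ac at its promoter, and 48 (64.9%) did in sgNpm1A, or 11 (14.9%) with the canonical start alone. Over any start a peak was found in sgNpm1A at 9 of 11 tri-snRNP proteins such as PRPF8, the core protein of the catalytic centre, 6 of 8 SR-related proteins, 5 of 6 SR protein kinases, 5 of 7 helicases 4 of 5 U2AF and branch point proteins, 3 of 7 proteins of the U6 LSM ring, 4 of 9 of the PRPF19 complex and 12 of 21 other RNA-binding regulators. The intervals of these small groups overlap, and the windows searched had medians from 4054 bp (LSM ring) to 13990 bp (SR-related proteins), so no order of the groups is read from them. For H3K4me3, 73 had a peak in sgNeg and 14 (18.9%) in sgNpm1A, with none at the canonical start. The gene without one in sgNeg was U2AF1, which has a near-identical copy in GRCh38, so its value is uncertain. The H3K27Ac percentile was lower in sgNpm1A at 73 of the 74 and higher at CTNNBL1 (50.7 and 70.9). HNRNPA2B1, which the symbol rule does not take, had percentiles of 99.97 and 98.8 in sgNeg for the marks and no peak in sgNpm1A.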

How the data were processed

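The authors called peaks in each library separately. The submitters' processing notes name bcl2fastq 2.17, Trimmomatic 0.33, Bowtie 1.1.2, MACS2 2.1.0 and deepTools, and neither the calling limit nor the use of the inputs was stated. Libraries were ChIPmentation libraries sequenced on a NextSeq 500. The deposited fold enrichment, a ratio of the observed to the expected pileup, was taken at the summit for the narrow H3K4me3 peaks and averaged over the region for the broad H3K27Ac peaks, and was scaled within each list. P-values and q-values were deposited as −log10 for each peak. The deposited score was not used.

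Methods of the study name hg38. Peaks on chromosome 1 reached 249218478 and 249212461 in the H3K27Ac lists, past its hg38 end, so these lists are on GRCh37. Peaks on chromosome 17 reached 83201880 and 83201881 in the H3K4me3 lists, past its hg19 end, so these are on GRCh38. Starts came from GENCODE version 44 mapped to GRCh37, which also records the original GRCh38 exon positions, and these were used for H3K4me3 without conversion. Of 14523 genes, 96.5% had a RefSeq start within 100 bp of a start read in this way.

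A peak counted when at least 1 bp lay within 1 kb of a start. Groups had 1 library each, so counts, medians and 95% Wilson intervals are given without a test. Members and lists were chosen with earlier results of these data known. Genes given in full were the 5 highest per mark and guide RNA, the 3 widest in sgNeg per mark, the highest and lowest of each family, those without a peak in sgNeg and those with an H3K4me3 peak in sgNpm1A. SRSF1, SF3B1 and HNRNPA1 fall outside these and were chosen as well known members after their values were seen. The canonical start and the comparison at or above the 95th percentile in sgNeg were added after the data were seen. Alternatives were other q-value limits, windows, starts, ranks and overlaps, windows moved by 20 kb, and leaving out the HNRNPCL genes. Python 3.11.15, numpy 2.4.6, pandas 2.3.3, scipy 1.17.1 and matplotlib 3.10.9 were used. The overlap functions were tested on simulated data. Promoter sequences are from RefSeq (GRCh38.p14), and the input libraries were not analysed here.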

Additional observations from a re-analysis of the deposited data

How the results depend on the processing

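No paired analysis was possible because each group has 1 library and no comparison has a test. Of the values recomputed, 104 stayed within 1.5 times (counts) or within the interval of the median over members and 29 moved further. This tally is no measure of stability, because many of these values could hardly move. Stricter q-value limits and single starts cannot raise an sgNpm1A median of 0. The sgNeg counts were near the full number of members and cannot rise by 1.5 times. In sgNeg, windows moved by 20 kb held a peak at 50 members for H3K27Ac and 40 for H3K4me3, and 51 had an H3K27Ac q-value under 1e-05, all below the Wilson intervals of the reported shares. The number of members with an H3K27Ac peak in sgNpm1A (24) was 11 with a q-value under 0.01, 0 under 1e-05, 7 with the start of the gene record, 9 with the canonical start and 43 with windows moved by 20 kb. In the same order, the shares of the other genes were 32.3, 0.936, 34.1, 34.2 and 73.8%. That with an H3K4me3 peak in sgNpm1A (8) was 2 with a q-value under 1e-05, 1 with the gene record, 0 with the canonical start and 19 with moved windows. Overlapping peaks of the guide RNAs fell for H3K27Ac from 19 to 2 with an overlap of 50% and to 3 with a q-value under 0.01, and for H3K4me3 from 5 to 1 with an overlap of 50%. Among the other genes such overlaps were found at 20.65, 15.8 and 7.99%. The covered part of the window in sgNeg was 87.5% and 94.8% for H3K27Ac and 41.9% and 45.2% for H3K4me3 with the gene record and the canonical start, where windows are shorter. The median H3K4me3 width in sgNeg was 1752 bp with peaks within 500 bp joined, and the H3K27Ac width in sgNpm1A was 299 bp with the gene record and also with the canonical start, over fewer genes. No width could be given for H3K4me3 in sgNpm1A at the canonical start, where no peak was found. The median H3K27Ac percentile in sgNeg was 97.2 with a q-value under 0.01, 78.7 under 1e-05, 96.1 ranked by width and 87.4 among promoter peaks, and the H3K4me3 percentile was 98.4, 93.8, 69.0 among promoter peaks and 99.3 over members with a peak in both lists. Over those members the sgNpm1A percentiles were 58.9 for H3K27Ac and 43.9 for H3K4me3. The cause of these shifts was not tested. Depth is unknown, and with 1 library per group no setting stands in for a replicate.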

Other observations

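Within the splicing factor genes the height of the marks was only loosely related. Over the 56 members with a peak of both marks in sgNeg, the percentiles of H3K27Ac and H3K4me3 had a Spearman's rho of 0.187, against 0.652 over 13882 other genes with both. This is a description across genes, each point of which shares the same libraries, and the members span only the upper end of both lists. The H3K27Ac percentiles in sgNeg and sgNpm1A had a rho of 0.0527 over the same members and −0.158 over the other genes.

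Members that start beside a protein-coding gene on the opposite strand had H3K27Ac peaks with a median width of 2837 bp in sgNeg, and the other members 2508 bp. Of the 15 with such a neighbour, 7 had an H3K27Ac peak and 3 an H3K4me3 peak in sgNpm1A, and of the 44 without one, 17 and 5. HNRNPCL4, which was not counted among the members, had no H3K4me3 peak at its GRCh38 start in either list. In the sgNeg H3K4me3 list, 8 members (SRSF1, SRSF3, SF3B1, SNRPB, SNRNP27, SNRNP48, HNRNPD and HNRNPDL) shared the same fold enrichment of 7.49, so their order within that list is not resolved.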
